A study of Mus musculus with 32 samples.

Results

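The genes described here carry symbols given to proteins of the mitochondrial ribosome and of the machinery that brings nuclear-encoded proteins into mitochondria. They were taken as every gene whose symbol in the array's probe annotation begins with Mrpl, Mrps, Timm, Tomm or Grpel followed by a number, which gave 79 genes from 104 probes, of at most 17053 genes measured in all. Of these, 38 were Mrpl, 23 Mrps, 12 Timm, 4 Tomm and 2 Grpel genes. The rule used symbols and no measured value, but it was set with earlier results of these data known. RNA of brain, kidney, muscle and pancreas came from 4 Nox4 knockout mice, C57BL/6 males aged 17 weeks. Nox4 encodes an NADPH oxidase that makes hydrogen peroxide. Every knockout sample was compared on 2 dye-swapped cDNA arrays, 32 in all, with a wild-type RNA pool from C57BL/6 males of that age. The pool held 4 animals by the design text and 6 by the labelling protocol, and each of the 4 knockout animals gave all 4 tissues. How the Nox4 allele was made, and which cells of a tissue carried the RNA, was not given in the sources used here.

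Mitochondria carry their own ribosome, which translates the few proteins encoded by mitochondrial DNA, all of them core subunits of the respiratory chain and ATP synthase. Its protein components are nuclear gene products, made in the cytosol and imported: the TOM complex forms the gate of the outer membrane, the TIM23 and TIM22 complexes serve the inner membrane, small TIM chaperones cross the space between them, and the GrpE-like proteins release ADP from the mitochondrial Hsp70 that pulls precursors inwards. Brain, kidney and muscle depend heavily on oxidative phosphorylation, and the exocrine pancreas makes large amounts of secreted protein on cytosolic ribosomes.

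The values are ratios between a knockout animal and the pool, so they hold no expression level, and neither the tissue of a sample nor its makeup of cells could be checked against marker levels. No probe on the array was annotated to Nox4, so the knockout could not be checked in the data either. In bulk tissue, fewer cells of a type and less RNA per cell cannot be told apart. The ratios most likely run knockout over wild-type pool, and "above" and "below" in what follows mean above and below a log2 ratio of 0. Whether the dye-swapped arrays (knockout in Cy3) had already been turned to that direction is not settled, so means of the 2 dye orientations are given beside some of the results. Both arrays of an animal were averaged, and n counts animals. Extreme values beyond 8 in size, with none between 7.36 and 15.4, touched 14 of 3240 member values and 8 members, and 88 values were missing.

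Promoter sequences of 4 members picked from those named below (Mrpl51, Mrpl21, Grpel1 and Mrpl33) give examples of the regulatory start of these genes. They run 5′ to 3′ from 250 bases before to 50 bases after the RefSeq gene start (GRCm38.p6), with capitals marking matches to motifs of factors known to drive nuclear genes for mitochondrial proteins. The motifs searched on both strands were CCGGAAG for the ETS family, which includes GABP (NRF2), GCATGCG for the core of the NRF1 site, and ATGGCGG for YY1, a string that can also be a start codon with the bases after it. No motif overlapped another in these 4 windows. Mrpl51 lies at chr6:125191950-125192249, Mrpl21 at chr19:3282792-3283091, Grpel1 at chr5:36464935-36465234 and Mrpl33 at chr5:31613701-31614000, all on the plus strand.
Mrpl51: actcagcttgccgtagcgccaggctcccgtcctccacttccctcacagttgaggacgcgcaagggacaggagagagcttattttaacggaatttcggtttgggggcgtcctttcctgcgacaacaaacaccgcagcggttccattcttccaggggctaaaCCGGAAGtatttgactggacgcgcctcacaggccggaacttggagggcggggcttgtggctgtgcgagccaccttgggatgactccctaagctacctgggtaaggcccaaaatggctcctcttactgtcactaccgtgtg
Mrpl21: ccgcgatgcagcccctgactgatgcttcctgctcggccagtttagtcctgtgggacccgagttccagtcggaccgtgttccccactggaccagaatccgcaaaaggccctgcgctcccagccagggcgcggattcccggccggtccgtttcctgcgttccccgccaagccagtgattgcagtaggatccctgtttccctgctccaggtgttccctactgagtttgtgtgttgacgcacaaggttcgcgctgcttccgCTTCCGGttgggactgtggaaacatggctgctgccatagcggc
Grpel1: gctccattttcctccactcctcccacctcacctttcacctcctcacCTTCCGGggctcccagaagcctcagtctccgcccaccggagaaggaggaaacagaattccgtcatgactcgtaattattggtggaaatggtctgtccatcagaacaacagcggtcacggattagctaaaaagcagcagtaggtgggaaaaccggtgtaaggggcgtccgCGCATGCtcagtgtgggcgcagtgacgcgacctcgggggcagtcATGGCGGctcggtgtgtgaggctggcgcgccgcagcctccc
Mrpl33: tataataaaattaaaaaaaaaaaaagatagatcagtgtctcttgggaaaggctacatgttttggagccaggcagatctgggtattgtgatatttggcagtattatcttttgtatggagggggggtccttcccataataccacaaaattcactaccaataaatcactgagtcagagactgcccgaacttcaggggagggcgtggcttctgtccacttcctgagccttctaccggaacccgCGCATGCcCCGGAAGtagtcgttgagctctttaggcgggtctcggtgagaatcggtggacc

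All 4 windows held the ETS motif, against 28 of the 70 members matched to a promoter. Mrpl1 and Mrps30, with a smaller F test p than Mrpl33, did not hold it. The motif began 90 bases before the start of Mrpl51, 204 bases before that of Grpel1 and 3 bases before that of Mrpl33, and lay after the start in Mrpl21. Grpel1 and Mrpl33 also held the NRF1 core, and Grpel1 the YY1 string. Of the 79 members, 70 matched the promoter table, with 75 promoters. The ETS motif stood in 29 of the 75 member promoters (38.7%), against 15.0% of 9357 promoters of other genes on the array and 8.86% of all 32851 promoters in the table. The YY1 string stood in 17.3% of member promoters, against 6.74% and 4.05% in the other 2 sets. The NRF1 core stood in 9.33%, against 5.53% and 3.58%. Of the 70 members, 38 had at least 1 of the motifs and 32 had none. The median share of G and C was 58.7% in member promoters, 60.0% in those of other array genes and 52.7% in all. A match is a string of letters and not a measured binding site.

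**Figure D1:**
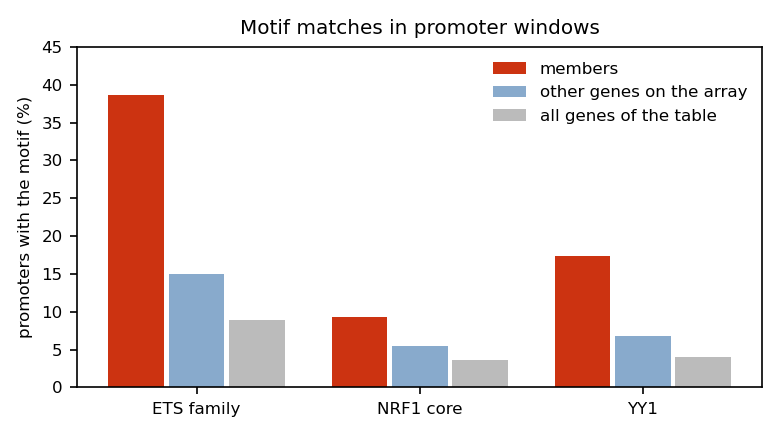
Share of promoter windows (250 bases before to 50 after the RefSeq start) that hold each motif on either strand, in percent, for the members, the other genes on the array and all genes of the table. The ETS bar of the members (38.7%) stands above both others (15.0% and 8.86%).

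Within single tissues, no gene of the mitochondrial ribosome or import machinery passed the test, and the median ratio over the set lay close to 0. Brain had a median log2 ratio of −0.0074 over the measured members, kidney 0.0057, muscle −0.0098 and pancreas 0.018. Over all genes tested, the medians were 0.0074, 0.0026, −0.024 and 0.00075 in the same order. With limma and Benjamini-Hochberg adjustment over all genes, 0 of 77 members passed an adjusted p of 0.05 in brain, 0 of 78 in kidney, 0 of 76 in muscle and 0 of 78 in pancreas. Of all genes 0% passed in each tissue too. The smallest adjusted p of a member in limma was 0.773 (brain), 0.511 (kidney), 0.538 (muscle) and 0.991 (pancreas).

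Members lay on both sides of 0. Means above 0 were found for 37 of 77 members in brain (background over all genes 53.4%), 40 of 78 in kidney (51.5%), 33 of 76 in muscle (41.6%) and 44 of 78 in pancreas (50.4%). At an unadjusted limma p under 0.05, brain had 1 member above (background 2.24%) and 2 below (1.89%), 3 of 77 against 4.13% of all genes. Kidney had 4 above (4.28%) and 5 below (5%), 9 of 78 against 9.28%. Muscle had 4 above (3.61%) and 3 below (3.69%), 7 of 76 against 7.29%. Pancreas had 3 above (1.34%) and 3 below (1.58%), 6 of 78 against 2.91%. These counts carry no correction for the number of genes.

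The sizes were small. Taken without its sign, a member's mean log2 ratio had a median of 0.060 (brain), 0.053 (kidney), 0.086 (muscle) and 0.115 (pancreas), and the median SD between animals was larger in every tissue (0.158, 0.111, 0.174 and 0.219). In pancreas the median size over all genes was 0.081, below that of the members, while in the other tissues it was 0.061, 0.047 and 0.084. Means beyond 0.5 in size were found for 1 of 77 members in brain (background 1.62%), 1 of 78 in kidney (0.755%), 3 of 76 in muscle (3.9%) and 9 of 78 in pancreas (4.23%). Leaving aside members with an extreme value, the counts were 0, 0, 1 and 6.

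By family, members stood on both sides of 0 in nearly every tissue. In pancreas 20 of 37 Mrpl genes, 12 of 23 Mrps genes, 9 of 12 Timm genes, 2 of 4 Tomm genes and 1 of 2 Grpel genes lay above 0. In muscle the counts were 14 of 36, 12 of 23, 5 of 11, 2 of 4 and 0 of 2 in the same order. In kidney they were 19 of 37, 14 of 23, 4 of 12, 2 of 4 and 1 of 2, and in brain 19 of 37, 9 of 22, 6 of 12, 2 of 4 and 1 of 2. The family medians of the log2 ratio stayed between −0.068 and 0.049 for the Mrpl, Mrps, Timm and Tomm genes. Both Grpel genes are given singly below.

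**Figure D2:**
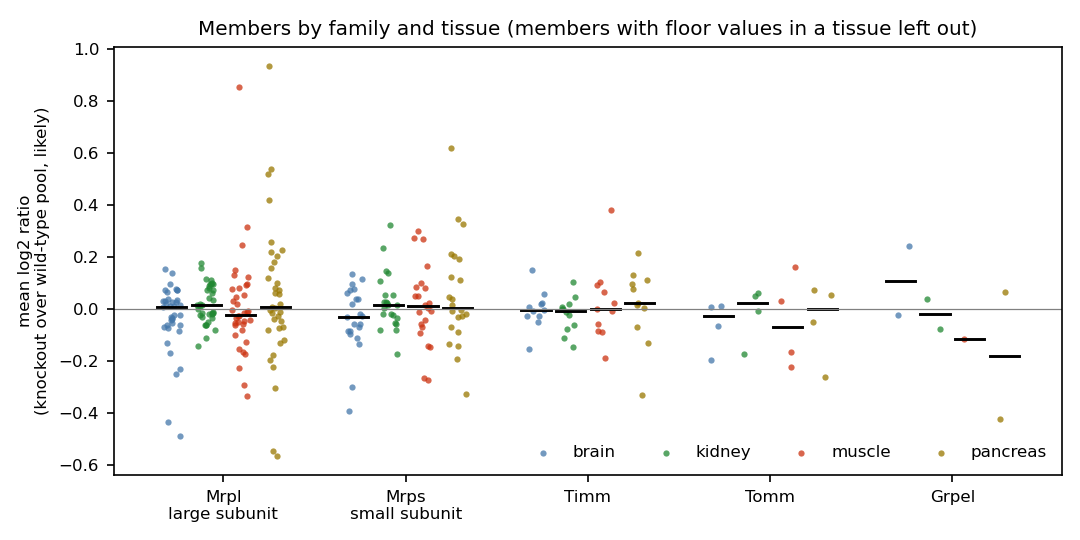
Mean log2 ratio over animals of each tested member (points), by gene family and tissue, with the family's median as a bar. Members with an extreme value in a tissue are left out there. Most points lie near 0 in each tissue, and the widest scatter is in pancreas, with Mrpl51 alone beyond 0.5 in muscle.

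Between tissues, Mrpl51, which encodes a protein of the large mitoribosomal subunit, was the only member whose ratio passed a test of a difference. In brain its log2 ratio was 0.15, −0.32, −0.39 and −0.36 in animals 1 to 4, against 0.51, 1.36, 0.61 and 0.94 in muscle of the same animals. The groups did not overlap, and the means of the other tissues (0.015 in kidney, −0.071 in pancreas) lay between them. Kidney had −0.27, 0.12, 0.16 and 0.06, and pancreas −0.41, −0.014, −0.19 and 0.33. The mean was −0.23 ± 0.25 in brain and 0.85 ± 0.38 in muscle (SD, n = 4 animals each).

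Brain minus muscle came to −1.09 ± 0.20 (SE), a ratio of 2.13 between the tissues on the linear scale, with an adjusted p of 0.0324 in limma. This fit assumes the same spread in all tissues, and on simulated data with unequal spreads it made more false calls than its threshold states. In this comparison 1 of 75 members passed, against 75 of 16257 genes or 0.461%. Kidney minus muscle was −0.84 ± 0.20 (adjusted p 0.178 in limma, background 0.0123%) and muscle minus pancreas 0.93 ± 0.20 (adjusted p 0.0512 in limma, background 0.578%), so neither passed, and 0 of 75 members did in these comparisons. Brain, kidney and pancreas overlapped for this gene.

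The Cy5 and Cy3 means of Mrpl51 (named for the dye of the knockout) were −0.16 and −0.31 in brain. In muscle it was above 0 on all 8 arrays, from 0.46 to 1.51. The 4 arrays that carried the knockout in Cy5 averaged 0.81 and those with Cy3 averaged 0.90. Within muscle alone Mrpl51 did not pass (0.85 ± 0.15 SE, adjusted p 0.538 in limma). With 1 spread estimated over all 4 tissues it did (adjusted p 0.00712 in limma, 1 of 75 members against 1.57% of all genes). The call between brain and muscle ended when the animal entered as a block (adjusted p 0.0755 in limma), when only these tissues were fitted (0.260), with arrays scaled to the same spread (0.0635), with only Cy3 or only Cy5 arrays (0.0593 and 0.0952), and without animal 2, 3 or 4 (0.563, 0.229 and 0.454 in limma), while the difference kept its sign. If the Cy3 arrays are turned, the difference is 0.12.

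Mrpl21, another large-subunit protein, had the smallest p of any member in the test for any tissue difference. In brain it lay at 0.050, −0.040, −0.0053 and 0.096 in animals 1 to 4. Kidney had 0.27, −0.010, 0.071 and 0.051, and muscle −0.0020, −0.14, −0.24 and −0.025, against −0.81, −0.62, −0.55 and −0.28 in pancreas. All values of brain, kidney and muscle were thus above all those of pancreas.

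The difference did not pass for Mrpl21 either. The F test gave an adjusted p of 0.0626 in limma, and in this test 0 of 75 members passed, against 0.0246% of all genes. Kidney minus pancreas was 0.66 ± 0.10 (SE, adjusted p 0.170 in limma, background 0%), brain minus pancreas 0.59 ± 0.10 (adjusted p 0.154, background 0%) and muscle minus pancreas 0.46 ± 0.10 (adjusted p 0.0606). In pancreas its mean of −0.56 ± 0.11 (SE, n = 4) had an adjusted p of 0.991 in the limma fit of that tissue and of 0.00636 in the fit with 1 spread for all tissues (1 of 75 members against 0.351%). The value rests on 1 of its 2 probes: probe number 6750 averaged −0.99 in pancreas and probe number 16085 averaged −0.14. Both orientations were below 0, at −0.42 for Cy5 and −0.71 for Cy3.

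Mrps30, a protein first counted with the small subunit and found in the large one in solved structures, had its lowest mean in brain and its highest in pancreas. Brain lay at −0.066, −0.072, −0.26 and −0.81 in animals 1 to 4, against 1.04, 0.57 and 0.24 in pancreas of animals 1, 2 and 4. Pancreas animal 3 lacked a Cy5 value and was left out, but its Cy3 array read −0.581, within the brain range. The animals with both arrays did not overlap between the tissues. Brain minus pancreas was −0.92 ± 0.22 (SE), with an adjusted p of 0.264 in limma. Over all arrays measured, its Cy5 and Cy3 means were −0.057 and −0.55 in brain, so the brain value came mainly from the Cy3 arrays, against 0.42 and 0.47 in pancreas.

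Mrpl33, the counterpart of bacterial ribosomal protein bL33, was below 0 on all 8 pancreas arrays. Kidney animals had 0.15, 0.31, 0.075 and 0.18, against −0.094, −0.49, −1.19 and −0.41 in pancreas. Kidney minus pancreas was 0.72 ± 0.24 (SE, adjusted p 0.749 in limma), again without overlap of animals. Animal 3 was the lowest in pancreas and also in muscle, at −0.73, where the other animals lay between 0.075 and 0.36. That muscle value came from its Cy5 array (−2.019), while its Cy3 array read 0.567.

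Mrps5, the counterpart of bacterial uS5, had −0.33, −0.053, −0.25 and −0.065 in kidney, against 0.032, 0.0020, 0.76 and 0.41 in muscle. These values did not overlap, although the lowest muscle animals stood next to 0. The highest, muscle animal 3, read −0.363 on its Cy5 array and 1.89 on its Cy3 array. The difference was −0.48 ± 0.15 (SE, adjusted p 0.366 in limma). Mrpl1, related to the bacterial protein of the L1 stalk, gave −0.065, −0.080, −0.36 and −0.11 in muscle, against 0.26, 0.042, 0.22 and 0.36 in pancreas. Its difference was −0.37 ± 0.092 (SE, adjusted p 0.0861 in limma). Its Cy5 and Cy3 means in pancreas were −0.15 and 0.59, of opposite sign.

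Counts without overlap of animals between tissues stayed near the background in most pairs. Brain against kidney had 1 of 75 members (background 5.86%), brain against muscle 5 (7.66%) and brain against pancreas 5 (4.15%). Kidney against muscle had 8 (6.91%), kidney against pancreas 2 (3.75%) and muscle against pancreas 4 (4.74%). For brain minus kidney 0 of 75 members passed the test, against 0% of all genes. At an unadjusted limma p under 0.05, of 75 members, brain minus kidney had 3 (background 2.92%), brain minus muscle 5 (9.23%), brain minus pancreas 8 (8.29%), kidney minus muscle 4 (6.23%), kidney minus pancreas 5 (5.67%) and muscle minus pancreas 12 (12.8%). The F test had 8 (8.68%).

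**Figure D3:**
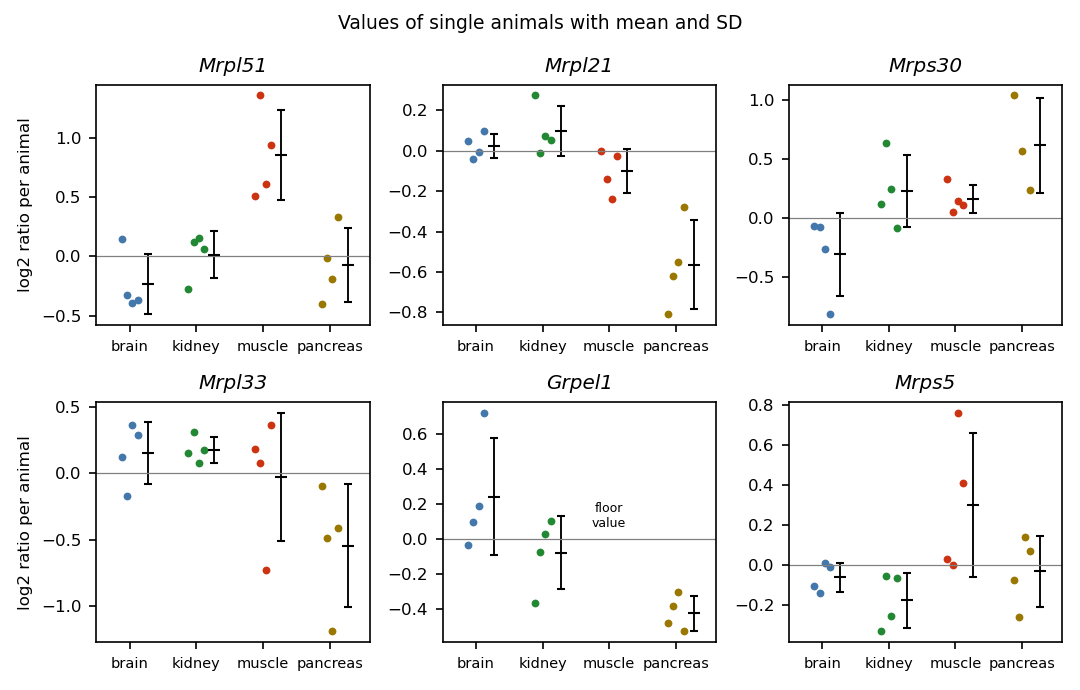
Log2 ratio of each animal (points; mean of both arrays) with the mean and SD (bars) for 6 members in 4 tissues. Mrpl51 in muscle lies at 0.51 to 1.36 and Mrpl21 in pancreas at −0.81 to −0.28, apart from their other tissues; Grpel1 in muscle holds an extreme value and is not drawn.

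Among import genes, Grpel1, the nucleotide exchange factor of mitochondrial Hsp70, was below 0 in every pancreas animal. Its log2 ratio in pancreas was −0.48, −0.38, −0.31 and −0.53 in animals 1 to 4, a mean of −0.43 ± 0.10 (SD, n = 4), with an adjusted p of 0.991 in limma. Single arrays ran from −0.98 to 0.37, and 2 of 8 were above 0. In brain it lay at −0.036, 0.094, 0.19 and 0.72 and in kidney at −0.37, −0.078, 0.029 and 0.10, on both sides of 0. In muscle 1 extreme value put animal 3 at −7.33, while the other animals lay between −0.16 and 0.24. Its paralogue Grpel2 had −0.037, −0.082, −0.14 and −0.21 in muscle (mean −0.12, adjusted p 0.687 in limma).

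No small TIM chaperone passed the test. Timm9, which forms a complex with Timm10, was the only member with all animals above 0 in brain, at 0.050, 0.13, 0.16 and 0.26 (1 of 77 members against 8.88% of all genes; adjusted p 0.773 in limma). Timm10 itself averaged 0.058 in brain. Timm8a1, whose product pairs with that of Timm13, lay between −0.14 and −0.092 in all kidney animals (mean −0.11 ± 0.020 SD, adjusted p 0.513 in limma), and Timm13 averaged −0.00088 there. Single kidney arrays of Timm8a1 spread wider, from −0.311 to 0.127.

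The translocase genes gave no single direction. Timm22, the channel for carrier proteins, averaged −0.15 in kidney and Tomm6, a small subunit of the outer gate, −0.17. In each of these, 1 probe carried most of the value: −0.33 against 0.038 for the probes of Timm22, and −0.30 against −0.044 for those of Tomm6. Timm50, the receptor of TIM23, averaged 0.38 ± 0.12 in muscle (SD), but its orientations disagreed, at 0.86 for Cy5 and −0.099 for Cy3. The probes of Timm50 averaged 0.83 in 2 muscle animals and 0.20 in 4. Tomm70a, the outer receptor for carrier precursors, averaged −0.26 in pancreas and between 0.011 and 0.062 elsewhere. By probe, Tomm70a averaged −0.42 and −0.099 in pancreas. Timm22, Tomm6, Timm50, Timm10, Timm13 and Tomm70a were picked after their values were seen.

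For the ribosomal proteins in kidney, the members of smallest p above 0 in all animals and in both orientations were Mrpl33 (given above), Mrps21 and Mrpl30, counterparts of bacterial bS21 and uL30. Mrps21 had 0.15, 0.14, 0.20 and 0.069, and Mrpl30 had 0.17, 0.18, 0.063 and 0.036. Mrpl30 was above 0 on all 8 kidney arrays, while single arrays of Mrps21 ran from −0.402 to 0.674. Below 0 stood Mrps5 and Mrpl36, the counterpart of bacterial bL36. Mrpl36 had −0.24, −0.11, −0.11 and −0.11, while its single arrays ran from −0.539 to 0.315. Adjusted p in limma for these genes lay between 0.511 and 0.527.

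In muscle, Mrpl10, at the base of the ribosomal stalk, had 0.058, 0.40, 0.16 and 0.37, with an adjusted p of 0.650 in limma. Its probes disagreed: number 577 averaged 0.62 and number 2607 averaged −0.13. Mrpl47, the counterpart of bacterial uL29, lay below 0 in all animals, at −0.067, −0.20, −0.16 and −0.27 (adjusted p 0.661 in limma).

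In brain, the members of smallest p below 0 in all animals and in both orientations were Mrpl23, counterpart of the bacterial uL23 at the exit tunnel, Mrpl17 and Mrps30. Mrpl23 lay at −0.049, −0.27, −0.50 and −0.92, a spread over animals nearly as large as its mean (−0.44 ± 0.37 SD, adjusted p 0.773 in limma). Mrpl17 lay at −0.20, −0.33, −0.025 and −0.12, and its 3 probes averaged −0.66, −0.058 and 0.21.

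Mrps27 and Mrpl49 are mitochondrial ribosomal proteins without a bacterial counterpart. In pancreas they were, with Mrps30 (3 animals), the members of smallest p above 0 in all animals with both arrays and in both orientations. Mrps27 had 0.21, 0.20, 0.076 and 0.34, and Mrpl49 had 0.20, 0.23, 0.35 and 0.028. Both had an adjusted p of 0.991 in limma. Members with every measured animal on the same side of 0 numbered 9 of 77 in brain (background 15.8%), 17 of 78 in kidney (20%), 14 of 76 in muscle (19.4%) and 14 of 78 in pancreas (11.2%). Those with every measured array on the same side numbered 0 of 77 in brain (background 0.938%), 1 of 78 in kidney (1.46%), 1 of 76 in muscle (2.08%) and 1 of 78 in pancreas (0.263%), and were Mrpl30, Mrpl51 and Mrpl33.

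Members with several probes, 22 of the 79, measured how far a gene's value depended on the probe. All probes of a gene had the same sign in 9 of 19 such members in brain, 12 of 21 in kidney, 9 of 19 in muscle and 11 of 20 in pancreas. The median gap between the probes of a gene was 0.062, 0.090, 0.14 and 0.16 log2 units in the same order. Members not tested were Mrpl13 in all 4 tissues, Mrps9 in brain, and Mrpl12 and Timm10b in muscle, for want of 3 animals with both arrays. Extreme values also set the means of Timm10b in pancreas (4.12 ± 5.50 SD), Mrpl12 in kidney (−2.30 ± 4.26) and Mrps9 in muscle (−2.62 ± 4.10).

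The dye orientations disagreed for most members. Cy5 and Cy3 means had opposite signs in 58 of 77 members in brain, 45 of 78 in kidney, 51 of 76 in muscle and 56 of 78 in pancreas. The share over all genes is not given here, so these counts are not a trait of the members. Over the members, arrays of the same orientation correlated at a median r of 0.13 (brain), 0.16 (kidney), 0.30 (muscle) and 0.34 (pancreas), and arrays of opposite orientation at −0.17, −0.16, −0.22 and −0.37. Over all genes the medians had the same signs, at 0.089, 0.15, 0.35 and 0.28 for the same orientation. For opposite orientation they were −0.084, −0.10, −0.15 and −0.30. These are correlations across genes of arrays that share the pool, given as a description. The part of the dye in these values was not tested.

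Turning the Cy3 arrays makes ratios run by dye if the deposited ones were already turned, and knockout over pool if they were not. With the Cy3 arrays turned, 13 of 78 members passed in pancreas, against 14.6% of all genes, and 2 of 76 in muscle, against 1.97%. None passed in brain (0.00598%) or kidney (0%) by limma. Between tissues, 5 of 75 members passed for brain minus pancreas (9.29%) and 1 for kidney minus pancreas (2.18%), with 0 for brain minus kidney (0%), brain minus muscle (0.00615%), kidney minus muscle (0%) and muscle minus pancreas (0.0308%). Mrpl51, Mrpl21, Grpel1 and Mrpl33, whose 2 orientations had the same sign in the tissues named above, then averaged −0.049 in muscle for Mrpl51, and 0.14, 0.078 and 0.035 in pancreas for the others in this order. The members called in pancreas under this reading included Mrpl9, Mrpl11, Mrpl18, Mrps15, Mrps24, Timm17a and Tomm7.

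**Figure D4:**
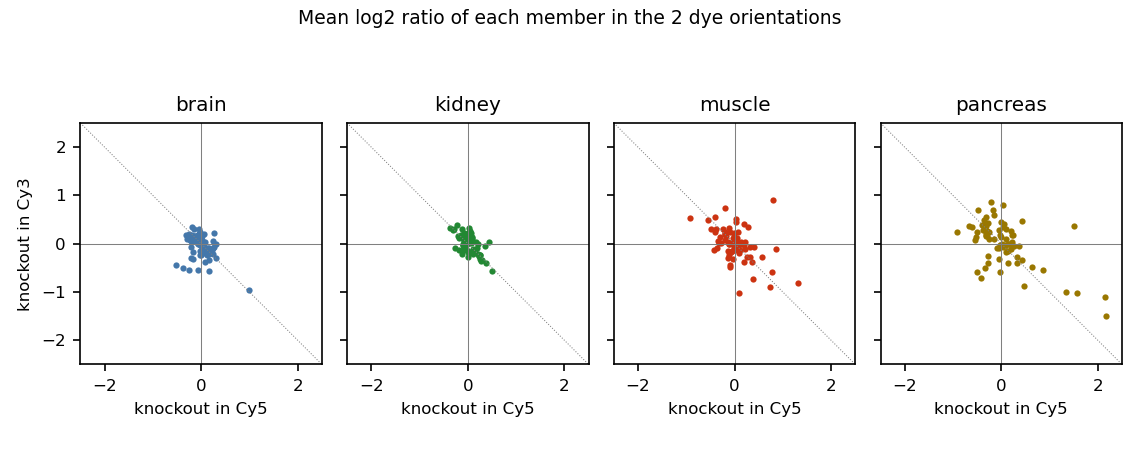
Mean log2 ratio of each member over its Cy5 arrays (horizontal) and its Cy3 arrays (vertical; named for the knockout's dye), by tissue; points on the dotted line have equal sizes and opposite signs, and members with an extreme value in a tissue are left out there. Opposite signs were found in 45 of 78 members in kidney to 58 of 77 in brain. The share over all genes is not given.

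Other gene families of mitochondria and translation also held no call. Of 72 oxidative phosphorylation subunits on the array, 43 of 67 measured in brain lay above 0, 40 of 66 in kidney, 32 of 66 in muscle and 38 of 67 in pancreas. Their medians were 0.027, 0.016, −0.0039 and 0.0091. Of 56 cytosolic ribosomal proteins, 32 of 56 lay above 0 in brain, 29 of 56 in kidney, 18 of 56 in muscle and 31 of 54 in pancreas, with medians of 0.0081, 0.0042, −0.061 and 0.020. No gene of either family passed in any tissue by limma, against 0% of all genes in each. At an unadjusted p under 0.05 the first family had 5, 4, 2 and 2 genes and the second 2, 8, 1 and 0, by tissue in the same order. The background over all genes was 4.13%, 9.28%, 7.29% and 2.91%.

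Lists of translation factors and tRNA synthetases of mitochondria (17 genes), of ribosome assembly (19), of mitochondrial DNA maintenance and transcription (18) and of other import, processing and quality control genes (31) also had no call in any tissue by limma. At an unadjusted p under 0.05 they had 0, 1, 2 and 1 genes, 1, 0, 1 and 2, 2, 1, 3 and 0, and 1, 7, 1 and 0, for brain, kidney, muscle and pancreas in turn. The background was 4.13%, 9.28%, 7.29% and 2.91% in that order. Their medians lay between −0.058 and 0.050. In muscle Gabpb1, which encodes the beta subunit of the ETS factor GABP, averaged 0.75 ± 0.16 (SE, n = 4), with animals from 0.39 to 1.32 and an adjusted p of 0.538 in limma. Its orientations gave 0.85 and 0.65. In kidney Atad3a, a membrane ATPase tied to mitochondrial DNA organisation, averaged −0.22 ± 0.044 (SE, adjusted p 0.511 in limma). In brain Mtg2, a GTPase of large-subunit assembly, averaged 0.24 ± 0.072 (SE) and Chchd4, the oxidoreductase of the intermembrane space import route, −0.17 ± 0.049 (SE), both with an adjusted p of 0.773 in limma. In muscle Mrm1, a methyltransferase of the mitochondrial ribosomal RNA, averaged −0.39 ± 0.12 (SE, adjusted p 0.596 in limma).

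Members with the ETS motif in their promoter were set beside those without it as a description. Medians of the log2 ratio were −0.027 with the motif and −0.0043 without in brain, 0.018 and −0.013 in kidney, −0.0065 and −0.029 in muscle, and −0.039 and 0.068 in pancreas. In pancreas 10 of 28 members with the motif and 28 of 42 without it lay above 0. The difference was not tested.

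Marker genes of 10 cell types (erythroid, macrophage, lymphocyte, adipocyte, acinar, islet, muscle fibre, proximal tubule, neuron and glia) had list medians near 0, and none passed by limma in any tissue. In muscle, where Mrpl51 was high, 6 of 19 muscle fibre markers lay above 0 (background 41.6%) with a median of −0.048. Single muscle fibre markers ran from −0.36 to 0.72 there, and macrophage markers had a median of −0.11. In pancreas, where Mrpl21 and Grpel1 were low, 5 of 12 acinar markers lay above 0 (background 50.4%) with a median of −0.0062, and islet markers had a median of 0.089. In kidney 2 of 11 proximal tubule markers lay above 0 (background 51.5%), with a median of −0.0405. Of these 11, 6 were below 0 in every animal, against 1659 of 16825 genes. At an unadjusted limma p under 0.05 there were 3 (background 9.28%). The part of the markers in the members' values was not tested.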

How the data were processed

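Each deposited value is a log2 ratio of 1 probe on 1 array of a knockout sample against the wild-type pool. The authors' tables do not name the logarithm's base, which was taken as 2. How arrays were scanned, background-corrected and normalised is not given in the sources used here. Per the labels, 20 µg of total RNA was labelled with Cy3 or Cy5, and dyes were exchanged between the 2 arrays of an animal.

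The probe annotation gave 12771 of 20794 probes 1 symbol. Probes of a symbol and the 2 arrays of an animal were averaged, with both arrays and at least 3 animals required. limma 3.58.1 (R 4.3.3) tested each tissue's mean against 0, and all 4 tissues in 1 fit (12 residual degrees of freedom) for the 6 tissue differences and the F test. Tests were two-sided, adjusted by Benjamini-Hochberg over all genes, with a threshold of 0.05. Since the pool is a single control sample, the spread between wild-type animals does not enter. On simulated data whose spread differed by gene and tissue, the fit within muscle kept its share of false calls under the threshold, but brain minus muscle in the fit of all tissues, which assumes 1 spread per gene, did not, so its adjusted p-values are too small under such spreads. The simulated spreads were the SDs over the 4 animals, taken as true. Sampling alone makes such SDs unequal, so the simulation cannot say how far this holds for the real spreads. Array brightness was not used; precision is limited by how many arrays there are.

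Members and lists were chosen with earlier results of these data known. Besides the genes called, the text names per tissue the 3 members above and 3 below 0 of smallest p whose animals and orientations had 1 sign, where as many existed, the 6 of smallest F test p, and selected genes of 4 pathway lists under the same sign rule for animals. Each animal gave all 4 tissues, per the labels, which pairs the samples; same-numbered animals deviated together little over all genes (r from −0.087 to 0.103 in 24 comparisons). Alternatives covered centring, scaling, orientation, extreme values, probes, moderation, tissue weights, an animal block and left-out animals. Protein sequences were not used here.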

Additional observations from a re-analysis of the deposited data

Results flagged for a closer look

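Among 25 groups of 4 animals behind the named values, 3 held an animal whose gap to the nearest other animal was above Dixon's critical value for a share of the group's range. Chance gives about 1 in 20 such groups. Mrpl51 in brain had 0.145 in animal 1, while the other animals lay between −0.39 and −0.32. Mrpl36 in kidney had −0.2415 in animal 1, with the others at −0.11, although its single arrays ran from −0.539 to 0.315, both in animal 2. Mrpl1 in muscle had −0.3615 in animal 3, with the others between −0.11 and −0.065. The ratio of Mrpl51 differed between tissues by the test of the difference itself, with brain minus muscle at −1.09 log2 units and an adjusted p of 0.0324 in limma. Without animal 1, the one apart in brain, that difference was −1.33 (adjusted p 0.00494 in limma).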

How the results depend on the processing

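Among alternative values of the counts of calls and of the medians, 193 stayed within 1.5 times the count or 1 SD of the median, and 30 did not. Brain minus muscle lost its only call (0 members) with the animal as a replicate block (Mrpl51 −1.09, adjusted p 0.0755 in limma), with arrays scaled to the same spread, with only Cy3 or only Cy5 arrays, with only these 2 tissues and with Cy3 signs turned. It had 2 calls with probes taken singly (Mrpl10 and Mrpl51), and 0 to 1 with an animal left out. The block changed no other call. Animals pair the tissues because each gave all 4. Muscle minus pancreas had 1 call (Mrpl51) with arrays centred, with only Cy5 arrays, with probes taken singly and with robust moderation, 2 with extreme values as missing (Mrpl21 and Mrpl51), and 0 to 1 with an animal left out. The F test had 1 call with extreme values as missing (Mrpl21), with only Cy5 arrays (Mrpl51) and with signs turned (Mrpl18), and 0 to 1 with an animal left out. Brain minus pancreas had 1 call with only Cy5 arrays (Mrpl18) and 5 with signs turned, and kidney minus pancreas had 1 with signs turned. With a spread shared by all tissues, muscle and pancreas had 1 call each, and with signs turned 2 and 13. The member median on Cy3 arrays alone was 0.030 in brain and 0.092 in pancreas, and in brain −0.033 to −0.00050 with an animal left out. The cause of these changes was not tested.

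With signs turned, 25 named values reversed. Genes named within a tissue were picked for the same sign in both orientations, so turning brings their means toward 0 by that rule alone. In muscle, Grpel2 became 0.045, Mrpl10 −0.21, Mrpl21 0.042, Mrpl47 0.063, Mrpl51 −0.049 and Mrps5 −0.12. In pancreas, Grpel1 became 0.078, Mrpl21 0.14, Mrpl33 0.035, Mrps27 −0.098 and Mrps30 −0.20. In kidney, Mrpl30 became −0.035, Mrpl33 −0.16, Mrpl36 0.14, Mrps21 −0.075, Mrps5 0.047 and Timm8a1 0.0065. In brain, Mrpl23 became 0.060 and Mrps30 0.25. Among differences, Mrpl51 in brain minus muscle became 0.12, Mrpl1 in muscle minus pancreas 0.20, Mrpl21 in kidney minus pancreas −0.17, Mrpl33 in kidney minus pancreas −0.19, Mrps30 in brain minus pancreas 0.45 and Mrps5 in kidney minus muscle 0.16. By probe, Mrpl10 in muscle was −0.13 on number 2607 and Mrpl17 in brain 0.21 on number 18119. Array brightness over background was not used, so its limit is unknown.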
